A study of Mus musculus with 6 samples.

Results

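The genes described here are 35 genes of glycolysis and of the transcriptional answer to low oxygen, chosen by name as glycolytic enzymes, their transporters and regulators, and targets or components of the hypoxia-inducible factors. All 35 were found by symbol among the 18482 genes of the deposited count table, and all 35 had enough counts to be tested. RNA was taken from the ear skin of mice on postnatal day 21, after tamoxifen. The lecko group (labelled Vegfr2lecko, genotype lecko) had Kdr, the gene of the VEGF receptor VEGFR2, deleted in lymphatic endothelium. Littermates that also received tamoxifen made up the control group (genotype Control). There were 3 polyadenylated RNA libraries per group. The sources used here do not give the promoter that drove the recombinase, the litter of each mouse or the tamoxifen schedule of these mice. P-values therefore measure the spread between these 6 samples, which may in part be technical.

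Glycolysis turns glucose into pyruvate, and lactate dehydrogenase turns pyruvate into lactate when it is not burned in mitochondria. When oxygen is plentiful, prolyl hydroxylases mark the alpha subunits of hypoxia-inducible factor (HIF) for destruction. When oxygen is scarce, the alpha subunits pair with Arnt and raise glucose transporters, glycolytic enzymes, mitophagy genes and further hydroxylases. Epidermis and hair follicles are mildly hypoxic and rely strongly on glycolysis, and skeletal muscle of the ear has high levels of several of the same enzymes.

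HIF binds a short core element in DNA, written ACGTG or GCGTG and searched here on both strands. RefSeq promoter windows of build GRCm38.p6, from 250 bases before to 50 after the start site, were at hand for 31 of the 35 genes in 43 windows. ACGTG lay in at least 1 window of 23 of these 31 genes (74.2%), against 21.8% of all 27025 genes of the promoter table and 27.8% of those that passed the count filter here. Either core lay in 29 of 31 genes (93.5%), against 46.7% of all genes and 64.5% of those that passed the filter. GC content, on which such matches depend, had a median of 65% in the members' windows, 60% in those of all tested genes and 52.7% in all windows. ACGTG on both strands is also part of CACGTG, the E-box of other factors, which was found in 4 of the 43 windows (9.30%, against 7.15% of all windows and 9.33% of those of tested genes). A match is a description of the letters and not a bound site. Many members were chosen as HIF targets, so a high share of a HIF element may follow from the choice and is no result about them.

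The following stretches of 100 bases, taken from the upstream part of the windows, are shown because they belong to the 3 genes with a window that had the smallest p in the comparison of the groups (Ddit4, Tpi1 and Slc2a1), a textbook HIF target (Pgk1) and an oxygen sensor that is itself a target (Egln3). They read 5′ to 3′ along the gene's own strand, with each core match in capitals. The stretch of Ddit4 is chr10:59951869-59951968, minus strand, with matches 187 and 115 bases before the start site. The stretch of Slc2a1 is chr4:119108645-119108744, plus strand, that of Pgk1 is chrX:106186912-106187011, plus strand, that of Egln3 is chr12:54204025-54204124, minus strand, and that of Tpi1 is chr6:124814159-124814258, minus strand. Ddit4, Slc2a1 and Pgk1 carried 2 matches each and Egln3 carried 1. Tpi1 had 0 matches of either core in its whole window.
Ddit4: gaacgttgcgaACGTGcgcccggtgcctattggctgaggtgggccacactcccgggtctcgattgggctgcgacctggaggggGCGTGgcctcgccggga
Slc2a1: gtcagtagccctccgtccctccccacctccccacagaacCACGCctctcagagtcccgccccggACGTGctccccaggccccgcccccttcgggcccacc
Pgk1: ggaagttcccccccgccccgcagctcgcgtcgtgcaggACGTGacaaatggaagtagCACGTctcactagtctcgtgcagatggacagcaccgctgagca
Egln3: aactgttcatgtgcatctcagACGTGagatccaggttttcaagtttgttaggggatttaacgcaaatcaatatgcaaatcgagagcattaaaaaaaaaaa
Tpi1: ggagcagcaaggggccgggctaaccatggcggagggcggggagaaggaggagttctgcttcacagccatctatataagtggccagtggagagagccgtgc

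Total estimated counts were 17242921 to 17825135 per library, of which the 35 genes together took 0.561 to 0.660%. Values below are CPM, counts scaled to a common library total with TMM factors. As a check on the labels, Kdr was at 31.3 to 38.5 CPM in the controls and 9.76 to 11.2 CPM in the lecko mice (adjusted p = 0.00026, edgeR). Bulk skin does not show in which cell type Kdr was lost, so this is no check that the loss was confined to lymphatic endothelium. Keratinocyte markers, at a mean log2 CPM of 10.7 to 10.8 in every library, were abundant, and 4 lymphatic markers summed to 132 to 156 CPM in the controls and 131 to 158 CPM in lecko mice. Counts of 4 Y-linked genes summed to 4272 and 4564 in controls 2 and 3 and to between 4 and 21 in the other 4 libraries, so the controls are mixed in sex and control 1 alone matches the lecko libraries. The count of members, their median and several members whose values moved are therefore also given with Y-linked expression as a covariate. The ratios were not fitted with it.

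No member passed the test over all genes. With the quasi-likelihood test of edgeR, adjusted by Benjamini-Hochberg over 14856 genes, 0 of the 35 members had an adjusted p under 0.05 (smallest adjusted p = 0.511, Ddit4), where 0.0202% of all genes were called. DESeq2 and limma-voom also called 0 members, with smallest adjusted p of 0.379 and 0.502. At an unadjusted p under 0.05, 4 members were lower in lecko skin (11.4% of the members, against 3.68% of all genes tested) and 0 were higher (against 4.89% of all genes). The 4 were Ddit4, Epas1, Tpi1 and Slc2a1. In all, 25 of 35 members had a negative log2 fold change (71.4%, against 48.1% of all genes), with a median of -0.10 against 0.01 over all genes. The values of the groups did not overlap, with lecko lower, for 5 members (14.3%, against 7.23% of all genes), namely the same 4 and Higd1a. They did not overlap, with lecko higher, for 1 member (2.86%, against 7.37%), namely Arnt. These differences were small: the 95% interval of the fold change lay within 1.5-fold in either direction for 29 of the 35 members.

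The count of 4 depended on single libraries and on the Y-linked covariate. It was 12 without lecko 1, 7 without control 3, 2 without lecko 3 and 1 without control 1, where 4.55%, 3.06%, 2.31% and 2.01% of all genes were lower at this p. It was 0 with the Y-linked covariate, where 2.08% of all genes were lower at this p. The 4 genes then had log2 fold changes of -0.17 to -0.27 (adjusted p = 0.901 each by edgeR), and the median was -0.15 over the members and 0.01 over all genes. Several other members were more negative in that fit: Pfkl was at -0.40 in place of -0.19 and Pkm at -0.22 in place of -0.10. Pfkfb4 was at -0.19 in place of -0.07, Ankrd37 at -0.47 in place of -0.36 and Egln1 at -0.12 in place of -0.04. Members that moved the other way included Pfkfb3, at -0.06 in place of -0.13.

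**Figure D1:**
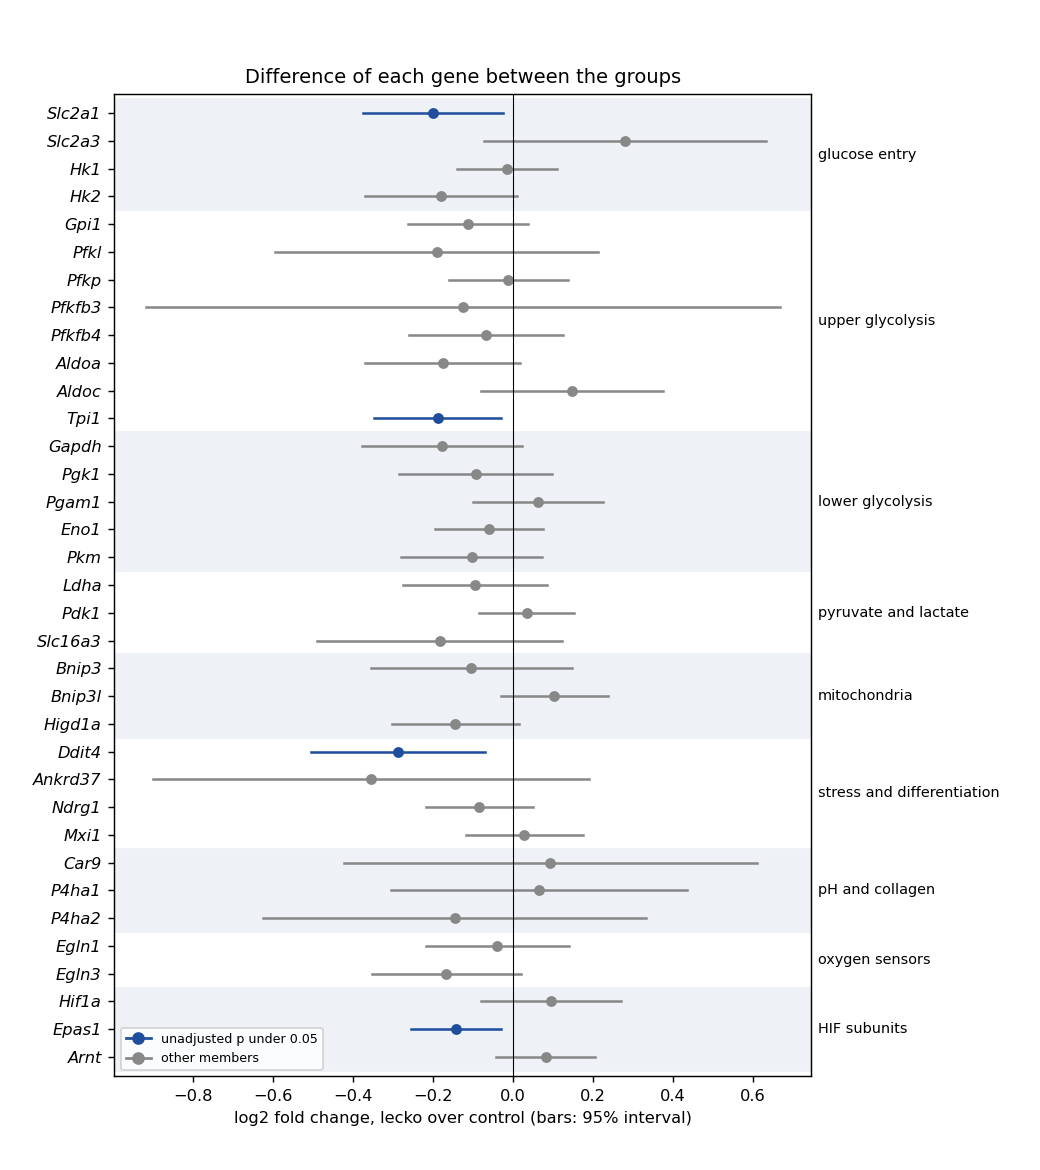
Log2 fold change of each of the 35 genes, lecko over control, by edgeR (points) with its 95% interval (bars), grouped by role; blue marks an unadjusted p under 0.05. Points lie left of 0 for 25 of 35 genes, and the intervals of 4 genes (Slc2a1, Tpi1, Ddit4 and Epas1) do not reach 0.

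Levels between genes were compared as CPM per kilobase of transcript, with the median length of each gene's coding transcripts in GENCODE M21. On this scale Gapdh was highest in control skin at 1016, followed by Aldoa at 614, Tpi1 at 263, Ldha at 261 and Pkm at 256. Car9, a carbonic anhydrase of the cell surface and a strong HIF target in tumours, was lowest at 0.795, with 25 to 36 estimated counts per library. The glucose transporter Slc2a1 was at 16.0 per kilobase and its relative Slc2a3 at 1.49. Hk1, the hexokinase of most tissues, was at 31.5, and Hk2, the inducible hexokinase, at 17.3. The 2 main HIF alpha genes were close, with Hif1a at 29.6 and Epas1 at 25.7 per kilobase.

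Glucose entry came first in the pathway. Slc2a1 (GRCm38.p6, chromosome 4, 119108745 to 119137330) encodes GLUT1, the main glucose transporter of keratinocytes. It was at 54.5, 51.7 and 50.5 CPM in controls 1 to 3 and at 49.5, 41.0 and 46.0 CPM in lecko 1 to 3. All lecko libraries lay below all controls, lecko 1 narrowly and lecko 2 by the most. Its log2 fold change was -0.20 (SE 0.08; unadjusted p = 0.030, adjusted p = 0.544 by edgeR). Slc2a3, a high-affinity transporter of neurons and leukocytes, was at 6.17, 6.50 and 5.02 CPM in the controls and at 8.07, 7.29 and 6.13 CPM in the lecko mice. Here the groups overlapped, with lecko 3 below controls 1 and 2, and the log2 fold change was 0.28 (SE 0.16). Hexokinases trap glucose in the cell as a phosphate: Hk1 had a log2 fold change of -0.01 and Hk2 of -0.18. Hk2 was lowest in lecko 2 at 57.8 CPM and highest in control 1 at 75.7 CPM.

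In upper glycolysis 7 of 8 genes had negative fold changes, and 1 of them, Tpi1, had an unadjusted p under 0.05. Tpi1 (chromosome 6, 124810586 to 124814158) encodes triosephosphate isomerase, which joins the products of the split sugar into a single path. It was at 322.7, 315.6 and 312.5 CPM in the controls and at 299.5, 283.4 and 251.4 CPM in the lecko mice. The 3 controls lay close together and every lecko library lay below them, lecko 3 the farthest. The log2 fold change was -0.19 (SE 0.07; unadjusted p = 0.025, adjusted p = 0.530 by edgeR). Aldoa, the aldolase of muscle and most tissues, was at 953, 851 and 933 CPM in the controls and at 879, 824 and 720 CPM in the lecko mice, a log2 fold change of -0.18 (SE 0.09). Lecko 1 lay above control 2, so these groups overlapped. Aldoc, the brain-type aldolase, was at 14.8, 14.5 and 16.1 CPM in the controls and at 15.6, 16.1 and 18.7 CPM in the lecko mice, overlapping, with a log2 fold change of 0.15 (SE 0.10).

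The other genes of upper glycolysis overlapped between the groups. Gpi1, which isomerises glucose phosphate, was at 292 ± 14.1 CPM in the controls and 270 ± 17.4 CPM in the lecko mice (SD, n = 3 each). Of the phosphofructokinases, which catalyse the committed step, Pfkp had a log2 fold change of -0.01 and Pfkl of -0.19 with an interval of -0.60 to 0.21. Pfkfb3 and Pfkfb4 make the sugar bisphosphate that activates phosphofructokinase, and Pfkfb4 was at 29.5 ± 2.74 and 28.1 ± 1.11 CPM. Pfkfb3 had the widest relative spread among the controls of the members: 48.1, 67.1 and 35.7 CPM in the controls and 57.4, 32.6 and 48.3 CPM in the lecko mice. Controls 2 and 3 thus differed more than the group means of 50.3 and 46.1 CPM did, and the interval of its log2 fold change ran from -0.92 to 0.67.

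Lower glycolysis, from Gapdh to Pkm, had 4 of 5 genes with negative fold changes and 0 at an unadjusted p under 0.05. Gapdh, which makes the first NADH of the pathway, was at 1343, 1220 and 1317 CPM in the controls and at 1262, 1156 and 1014 CPM in the lecko mice. Lecko 2 and lecko 3 lay below all controls and lecko 1 between them, with a log2 fold change of -0.18 (SE 0.09; unadjusted p = 0.076 by edgeR). The kinase Pgk1, which makes the first ATP, had a log2 fold change of -0.09, the mutase Pgam1 0.06, the enolase Eno1 -0.06 and the pyruvate kinase Pkm -0.10. Lecko 3 was the lowest of the 6 libraries for Gapdh, Pgk1, Eno1 and Pkm. Several of these enzymes have near-identical processed copies in the mouse genome, and the part of shared reads in their estimates was not tested. The estimates of Pgk1, Pgam1, Eno1 and Pkm were whole numbers in all 6 libraries, and those of Gapdh in 4 of 6.

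Pyruvate is turned into lactate by Ldha, the kinase Pdk1 restrains the burning of pyruvate in mitochondria, and lactate leaves through the transporter Slc16a3. Ldha was at 415 ± 19.4 CPM in the controls and 388 ± 38.2 CPM in the lecko mice (SD, n = 3 each), with lecko 3 lowest at 344.8 CPM. Pdk1 was at 79.4 ± 1.51 and 81.3 ± 2.34 CPM, with an interval of -0.09 to 0.15 on the log2 scale. Slc16a3 had a log2 fold change of -0.18 (SE 0.14), from 14.2 ± 1.08 to 12.5 ± 2.19 CPM.

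Among HIF targets outside glycolysis, Ddit4 had the smallest p of all members. Ddit4 (chromosome 10, 59949675 to 59951770), also named REDD1, restrains the growth kinase mTORC1 under hypoxia and other stress. It was at 102.5, 114.9 and 94.6 CPM in the controls and at 94.0, 75.7 and 85.8 CPM in the lecko mice. The groups did not overlap, though lecko 1 and control 3 lay close to each other. The log2 fold change was -0.29 (SE 0.10; unadjusted p = 0.016, adjusted p = 0.511 by edgeR). Higd1a, a small mitochondrial protein induced by HIF, was at 57.9, 55.9 and 57.04 CPM in the controls and at 54.1, 53.9 and 46.7 CPM in the lecko mice, without overlap (log2 -0.14, SE 0.07, unadjusted p = 0.071 by edgeR). Its estimates were whole numbers in 2 of 6 libraries. The mitophagy receptors differed in sign: Bnip3 was at -0.10 (SE 0.11) and Bnip3l at 0.10 (SE 0.06) on the log2 scale. The value of Bnip3 rested on lecko 2, without which it was -0.00099, and it was -0.24 without lecko 1.

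Ankrd37, an ankyrin repeat gene used as a HIF marker, had the most negative fold change of the members, -0.36, on 37 to 75 estimated counts per library, with an interval of -0.90 to 0.19. Ndrg1, a differentiation gene of epithelia and Schwann cells, had a log2 fold change of -0.08, and Mxi1, an antagonist of Myc, of 0.03. P4ha1 and P4ha2 are alpha subunits of the enzyme that hydroxylates collagen prolines. P4ha1 was at 68.0, 79.9 and 54.0 CPM in the controls and at 80.2, 62.1 and 68.8 CPM in the lecko mice. P4ha2 was at 50.4, 57.04 and 34.0 CPM in the controls and at 48.5, 38.4 and 40.9 CPM in the lecko mice. Control 3 was the lowest of the 6 libraries for both, and the log2 fold changes were 0.06 and -0.15. Car9 was at 1.61 ± 0.171 CPM in the controls and 1.72 ± 0.287 CPM in the lecko mice, with an interval of -0.42 to 0.61 on the log2 scale.

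Both oxygen sensors had negative fold changes, and the 3 HIF subunits differed in sign. The sensors Egln1 (PHD2, the main hydroxylase of HIF alpha) and Egln3 (PHD3, an inducible relative) had log2 fold changes of -0.04 (SE 0.08) and -0.17 (SE 0.08). Egln1 was at 104.2, 98.1 and 92.7 CPM in the controls and at 104.3, 96.6 and 86.1 CPM in the lecko mice, and Egln3 at 80.0, 83.4 and 72.1 CPM and at 74.8, 62.9 and 72.1 CPM. Both overlapped between the groups.

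Epas1 (chromosome 17, 86753864 to 86833410) encodes HIF-2 alpha, which is prominent in endothelium. It was at 144.7, 142.5 and 138.3 CPM in the controls and at 130.9, 126.4 and 127.9 CPM in the lecko mice. Both groups were tight and lay apart, with a log2 fold change of -0.14 (SE 0.05; unadjusted p = 0.018, adjusted p = 0.524 by edgeR). Hif1a (chromosome 12, 73901324 to 73947554), the broadly expressed alpha subunit, was at 133.3, 140.3 and 116.2 CPM in the controls and at 145.1, 130.1 and 141.0 CPM in the lecko mice. These overlapped, with control 3 lowest (log2 0.09, SE 0.08). Arnt, the shared beta subunit, was at 77.8, 79.7 and 79.4 CPM in the controls and at 79.7, 86.7 and 84.4 CPM in the lecko mice. Its lowest lecko value lay just above the highest control value (log2 0.08, SE 0.05, unadjusted p = 0.167 by edgeR).

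**Figure D2:**
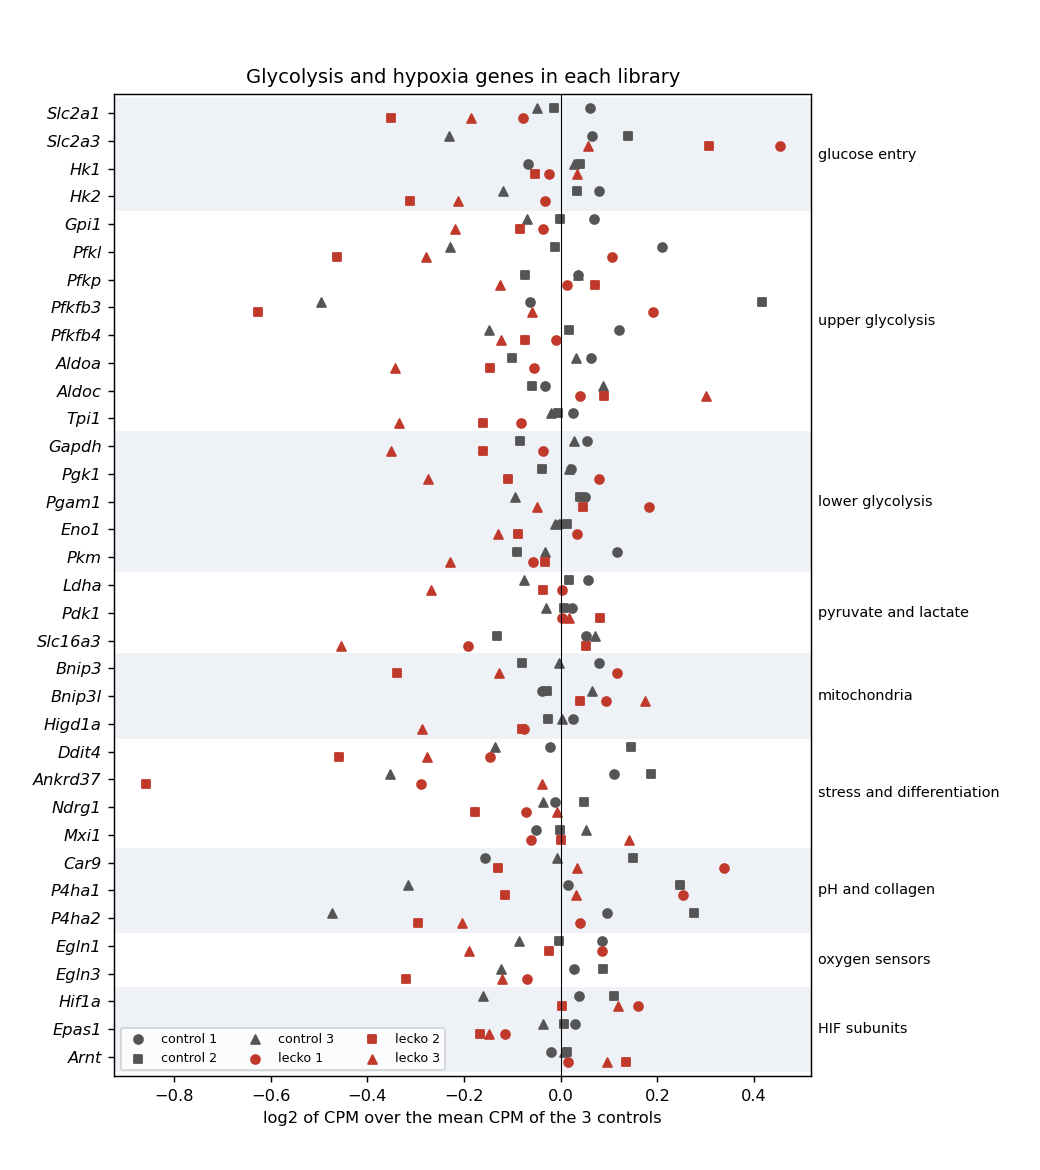
Level of each gene in each library, as log2 of its CPM over the mean CPM of the 3 controls; grey symbols are controls and red symbols lecko libraries, 1 symbol shape per replicate number. Lecko 3 holds the lowest value for 12 of 35 genes and lecko 2 for 10 (18.8% and 14.5% of all genes tested). The spread of Pfkfb3, P4ha1 and P4ha2 within the controls exceeds their difference between groups, as it does for several other genes, among them Hif1a and Pfkl.

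Ratios between 2 genes in the same library do not depend on how libraries are scaled. Of 10 such ratios, the groups did not overlap for 4, each with an exact two-sided permutation p of 0.1, the smallest that 3 against 3 allows, and an adjusted p of 0.25 over the 10. The log2 ratio of Epas1 to Hif1a counts was 0.12, 0.02 and 0.25 in controls and -0.15, -0.04 and -0.14 in lecko skin, a difference of -0.24. The log2 ratio of Slc2a3 to Slc2a1 was -3.15 ± 0.17 in controls and -2.67 ± 0.21 in lecko skin (SD, n = 3 each), a difference of 0.48. That of Aldoc to Aldoa was -5.91 ± 0.08 and -5.59 ± 0.28, a difference of 0.32, with lecko 3 highest; without lecko 3 it was 0.16. That of P4ha2 to P4ha1 was -0.53 ± 0.12 and -0.72 ± 0.03, a difference of -0.19. The other 6 ratios (Hk2 to Hk1, Pfkp to Pfkl, Pfkfb4 to Pfkfb3, Bnip3 to Bnip3l, Egln3 to Egln1 and Ldhb to Ldha) overlapped, with differences between -0.22 and 0.19 and exact permutation p between 0.2 and 1. The design cannot bring any of these ratios under 0.05. The pairs were chosen with earlier results of these data known. The share of other gene pairs whose groups do not overlap was not computed, so 4 of 10 cannot be read as an excess.

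**Figure D3:**
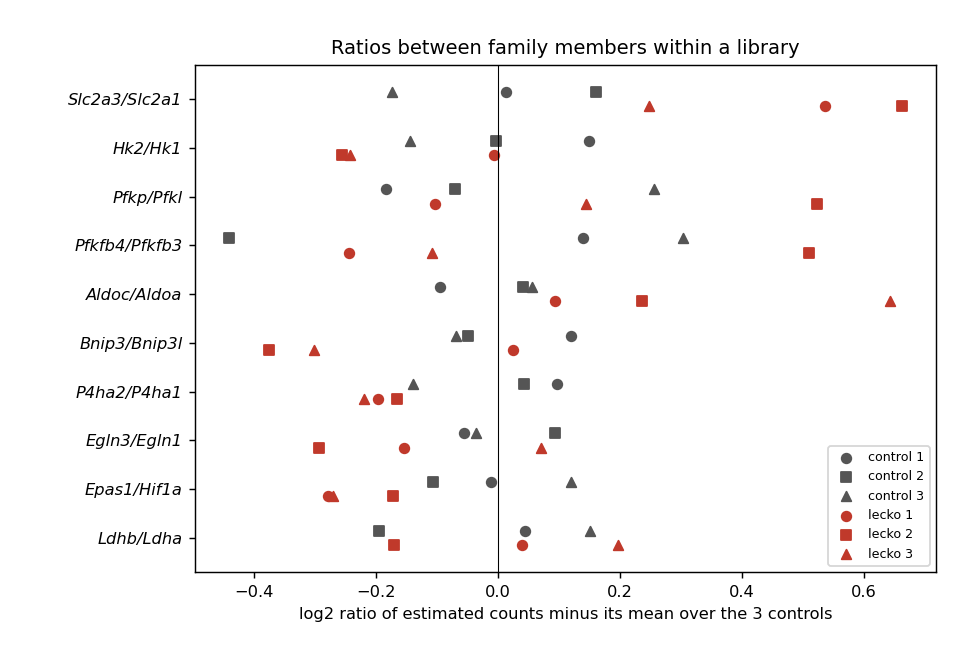
Log2 ratio of estimated counts between family members within each library, minus its mean over the 3 controls (grey controls, red lecko). All 3 lecko values lie to the right of all controls for Slc2a3/Slc2a1 and Aldoc/Aldoa and to the left for P4ha2/P4ha1 and Epas1/Hif1a.

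Marker lists of cell types moved between the libraries along with several members, and in bulk skin fewer cells of a type and less RNA per cell cannot be told apart. All 18 skeletal muscle markers had negative fold changes (against 48.1% of all genes tested). Of these, 14 were at an unadjusted p under 0.05 by edgeR (77.8%, against 3.68% of all genes). At an adjusted p under 0.05 there were 0 (0.0202% of all genes). Their summed level was 8584 to 9654 CPM in the controls and 6389 to 8125 CPM in the lecko mice, lowest in lecko 3. That library was also lowest for Aldoa, Tpi1, Gapdh, Pgk1, Eno1, Pkm and Ldha. It was lowest for 12 of the 35 members in all and for 18.8% of all genes tested. The match did not hold in every library. Pgk1 and Eno1 were highest in lecko 1 (202.7 and 311.4 CPM), where the muscle markers, at 8125 CPM, lay below every control. Among the controls, Ldha was lowest in control 3, where the muscle markers were highest. All 7 blood endothelial markers were negative as well (against 48.1% of all genes). Their summed level was 331 to 358 CPM in the controls and 271 to 299 CPM in the lecko mice. Their median log2 fold change was -0.25, beside the -0.14 of Epas1. No marker of either list was at 0 in any library. The summed level of 7 fibroblast markers was lowest in control 3 (22221 CPM) and highest in control 2 (35762 CPM). These were also the lowest and the highest control for P4ha1, P4ha2, Pfkfb3 and Hif1a. The 5 tested cartilage markers had the same order among the controls (519 and 747 CPM). So did leukocyte (203 and 300 CPM), lymphatic (132 and 156 CPM) and adipocyte markers (74.8 and 89.0 CPM), so the order was not particular to fibroblasts and cartilage. Muscle and keratinocyte markers had the reverse order. Control 3 was the lowest of the 6 libraries for 22.1% of all genes tested. The part of these cell types in the values of the members was not tested. With library sizes that left out the muscle markers, and without TMM factors, the median of the members was -0.09. The same 4 members had an unadjusted p under 0.05 by edgeR. These markers took at most 9654 CPM, so leaving them out could hardly move any value, and this fit does not test the part of muscle.

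**Figure D4:**
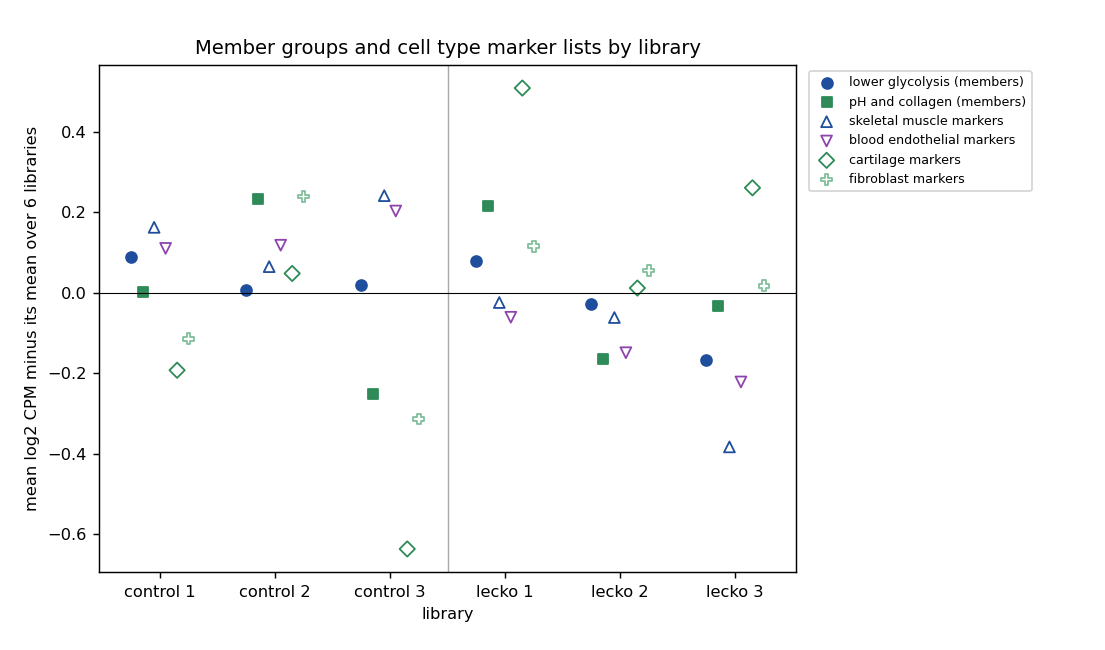
Mean log2 CPM of 2 groups of members (filled symbols) and of 4 cell type marker lists (open symbols) in each library, minus the mean over the 6 libraries. Lower glycolysis, skeletal muscle markers and blood endothelial markers are all lowest in lecko 3. The pH and collagen genes, cartilage and fibroblast markers are all lowest in control 3. Of the lists not drawn, adipocyte markers are lowest in lecko 3 and leukocyte markers in control 3. Keratinocyte, lymphatic and erythroid markers, also not drawn, are lowest in other libraries.

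Other genes of both pathways showed the same absence of calls. Of 27 further genes of glycolysis and pyruvate use, 25 were tested, and 0 had an adjusted p under 0.05 (0.0202% of all genes). At an unadjusted p under 0.05, 3 were lower (12%, against 3.68% of all genes) and 2 higher (against 4.89% of all genes). Their median log2 fold change was -0.05. The 3 lower genes were Eno3, Bsg and Pfkm, the muscle phosphofructokinase (log2 -0.21), and the 2 higher ones were Hk3 and Bpgm. Eno3, the muscle enolase, was at 303 ± 21.7 CPM in the controls and 246 ± 29.4 CPM in the lecko mice (SD, n = 3 each; log2 -0.30). Hk3, a hexokinase of myeloid cells, was at 2.22 ± 0.138 and 3.73 ± 0.547 CPM (log2 0.75), beside a summed level of 9 leukocyte markers of 203 to 300.02 CPM in the controls and 296 to 396 CPM in the lecko mice. Bpgm, which makes the haemoglobin regulator of red cells, was at 22.8 ± 1.69 and 29.6 ± 5.38 CPM (log2 0.37), beside 6 erythroid markers at 848 to 1281 and 1392 to 2453 CPM. Bsg, the chaperone of the lactate transporters, was at 310.3 ± 3.68 and 275.5 ± 19.6 CPM (log2 -0.17). The part of leukocytes, red cells and muscle in these differences was not tested.

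Of 43 further hypoxia genes, all tested, 0 had an adjusted p under 0.05. At an unadjusted p under 0.05, 2 were lower (4.65%, close to the 3.68% of all genes) and 1 higher (against 4.89% of all genes). Their median log2 fold change was -0.01. The 2 lower ones were Ndufa4l2, a HIF-induced mitochondrial protein that marks pericytes (39.3 ± 3.17 and 29.9 ± 4.59 CPM, log2 -0.39), and Apln, a peptide of endothelial tip cells (11.4 ± 0.390 and 8.64 ± 1.39 CPM, log2 -0.40; SD, n = 3 each). Hmox1, haem oxygenase, was the higher one at log2 0.19, and Ero1l, an oxidase of the endoplasmic reticulum, followed at 0.15. Vegfa, the ligand of the deleted receptor and a classic HIF target, had a log2 fold change of -0.03, and is named here outside the rule.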

How the data were processed

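The authors deposited estimated counts per gene, not scaled to depth, for 6 libraries of ear skin; 9.60 to 10.5% were not whole. Tools named in the submitters' processing notes were RSEM 1.3.1, HISAT2 2.2.1 and Bowtie2 2.4.5, with build GRCm38.p6; the sources used here do not give their order, strand setting or annotation. Groups come from sample titles. Counts were rounded, filtered (filterByExpr, minimum count 10, minimum total 15, leaving out 3626 genes), scaled by TMM and tested with edgeR 4.0.16 (robust quasi-likelihood, group as sole term, R 4.3.3), with Benjamini-Hochberg adjustment over all 14856 genes at 0.05. SE and 95% intervals are Wald values scaled by the moderated quasi-dispersion. Ratios used a pseudocount of 0.5 and exact permutation over 20 arrangements (scipy 1.17.1). Between libraries of a group, counts varied 8.14 to 16.8 times as much as sampling alone gives, so none was merged. Precision covers 6 samples only.

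Gene identifiers matched RefSeq for 18432 genes. Transcript starts in GENCODE matched 36 of 43 promoter windows. The scripts were tested on simulated data. Members, lists and tests were chosen with earlier results of these data known. Values in every library were given for members at an unadjusted p under 0.05, for both genes of a ratio whose groups did not overlap, and for HIF subunits and oxygen sensors; from the other pathway lists at most 4 genes with the smallest p were named. Other members printed by library (Gapdh, Pfkfb3 and Higd1a), Pfkm and Vegfa were chosen after their values were seen. Alternatives were DESeq2 1.42.0, limma-voom (limma 3.58.1), other scalings and filters, a replicate block, a Y-linked covariate (above or below 10 CPM) and leaving out each library.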

Additional observations from a re-analysis of the deposited data

How the results depend on the processing

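Members with an adjusted p under 0.05 numbered 0 under all 18 alternatives, of which the one lacking the 2 controls with Y-linked expression was chosen after seeing the data and leaves 1 control, assumed to vary like the lecko libraries. The median of the members stayed negative, from -0.16 without lecko 1 to -0.04 without lecko 3 when single libraries were left out. Over the same 6 fits, 22 to 28 members were negative, 1 to 12 were lower and 0 to 1 (Slc2a3, without lecko 3) higher at an unadjusted p under 0.05, where 2.01 to 4.55% of all genes were lower and 2.80 to 7.32% higher. The count of lower members was 0 with the Y-linked covariate and 0 without the 2 controls. Over all genes, 2 were higher and 1 lower, against 24 and 8 by DESeq2, and 2 to 36 (without control 2) and 1 to 5 (without control 1) with single libraries left out. The scalings moved the median of all genes by less than 0.01. Ddit4, Epas1, Tpi1 and Slc2a1 were negative under all 18 alternatives. Other members were too, among them Hk2, Gpi1, Pfkl, Aldoa, Gapdh, Eno1 and Egln3. The alternatives reuse the same libraries, so a kept sign is no separate support for any of these genes.

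Hk1 was at 0.054 with the Y-linked covariate and at 0.048 without the 2 controls. Single libraries left out turned the sign of these log2 fold changes: Hk1 (-0.054 to 0.0040), Pfkp (-0.055 to 0.042), Pfkfb3 (-0.32 to 0.13), Pgam1 (-0.0094 to 0.12), Mxi1 (-0.031 to 0.062), Car9 (-0.055 to 0.19), P4ha1 (-0.072 to 0.20), P4ha2 (-0.34 to 0.011) and Egln1 (-0.11 to 0.031). The same held for the log2 ratio of Pfkfb4 to Pfkfb3 (-0.18 to 0.20) and of Ldhb to Ldha (-0.076 to 0.12). Values that kept their sign but moved by over 1.5 times included Slc2a1 (-0.13 without lecko 2), Tpi1 (-0.12 without lecko 3) and, with the Y-linked covariate, Bnip3 (-0.18), Gpi1 (-0.18), Ldha (-0.15), P4ha2 (-0.24) and Car9 (0.25). The causes were not tested. Same-numbered libraries did not all deviate together (correlations of 0.34, -0.07 and 0.04), though 0.34 was the highest between any control and any lecko library. With 3 libraries per group, these values cannot decide whether the numbers pair the mice. With a replicate block 5 members were lower at an unadjusted p under 0.05 by edgeR (3.39% of all genes) and the median was -0.10. Depth limits Car9 and Ankrd37.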

Other observations

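The wide spread of Pfkfb3 within both groups was shared in part by 2 genes of a list of 10 glucocorticoid-induced and early response genes, and both were picked after their values were seen. Fkbp5, a chaperone induced by glucocorticoids, was at 268, 271 and 90.5 CPM in the controls and at 269, 50.7 and 147.7 CPM in lecko skin. Zbtb16, another gene induced by glucocorticoids, was at 124.5, 123.6 and 35.6 CPM and at 113.3, 28.7 and 67.2 CPM. Pfkfb3, Fkbp5 and Zbtb16 were each lowest in lecko 2 and next lowest in control 3, while the order of the other 4 libraries differed between them. The list as a whole was not lowest in lecko 2: it summed to 2022, 2154 and 1382 CPM in controls 1 to 3 and to 1903, 1824 and 1780 CPM in lecko 1 to 3, with 7 of 10 genes at negative fold changes. Glucocorticoid exposure of the mice was not measured and its part in the spread of Pfkfb3 was not tested.

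The largest difference in either pathway list was that of Pdk4, a kinase that spares glucose in fasting, named here, like Angptl4, after its values were seen. Pdk4 was at 110.2, 90.3 and 130.9 CPM in the controls and at 86.3, 17.2 and 32.5 CPM in lecko skin (log2 -1.28, SE 0.64, adjusted p = 0.653 by edgeR). Angptl4, a lipase inhibitor that is also raised in fasting, was at 26.9, 23.6 and 33.7 CPM in the controls and at 23.0, 8.54 and 16.6 CPM in lecko skin (log2 -0.81, SE 0.36). Both were lowest in lecko 2, and lecko 1 lay close to the controls for both, while Pdk1, the HIF-regulated kinase of the same family as Pdk4, varied between 77.8 and 84.0 CPM over all 6 libraries.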
